A study of Rattus norvegicus with 9 samples.

Results

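The genes described here are 9 genes of the phototransduction cascade and the photoreceptor outer segment, Gnat1, Cnga1, Pde6b, Gnat2, Pdc, Sag, Rcvrn, Aipl1 and Abca4, chosen by name, each with every probe set that the array's annotation assigns to it. Each gene had 1 probe set, so they are 9 of 31099 probe sets and 9 of 14217 named genes on the Affymetrix whole-genome rat expression array. RNA of 9 samples was hybridized, 1 array per sample and 3 samples per group, from 3 separate experiments. P-RPC (primary retinal progenitor cells) were obtained by papain dissociation of neural retina from SD rat pups on postnatal day 1, with no sorting described and the number of animals per sample not given in the sources used here. rESC-RPC1 and rESC-RPC2 were both differentiated from DA8-16, a single embryonic stem cell line of DA rat background, as aggregates (SFEBq) with Matrigel and the Wnt inhibitor IWR-1e, with FBS from day 8, and both were harvested on day 16. Aggregates were digested for adherent culture on day 10 for rESC-RPC1, whose medium was changed to N2 on day 14, and on day 14 for rESC-RPC2. In each comparison with P-RPC, cell source, strain and culture changed together and cannot be told apart. Between the rESC-RPCs, the day of adherence and the N2 medium cannot be told apart.

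In rods and cones, light absorbed by an opsin activates the G protein transducin, transducin relieves the inhibition of a cGMP phosphodiesterase, and the fall in cGMP closes cation channels of the outer segment. Arrestin and guanylate cyclase with its activating proteins shut the response off and restore the dark state. Rods and cones use separate genes for several steps, such as Gnat1 and Gnat2 for the transducin alpha subunit, and share others. In rodents, cones are born before birth and most rods around and after it, so a newborn retina holds young photoreceptors whose outer segments have not yet formed. The homeodomain factor CRX, with its relative OTX2, and the rod factor NRL are known regulators of many of these genes.

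Upstream sequences are shown for the 4 genes in which a core motif of such factors was found. Levels of Crx and Otx2 are given later, while Nrl is not analysed here. They are the 140 bases before the annotated start, 5′ to 3′ on the strand of the gene, from RefSeq on the GRCr8 assembly. They lie at chr2:212849345-212849484 (plus strand) for Abca4, chr10:57163456-57163595 (minus strand) for Aipl1, chr14:1511436-1511575 (minus strand) for Pde6b and chr9:95917057-95917196 (plus strand) for Sag. Capitals mark 3 motifs. The CRX/OTX core is TAATCC, which appears as GGATTA when it lies on the opposite strand. The paired-type homeodomain core is TAATTA, which is the same on both strands. The NRL site core is TGCTGA, which appears as TCAGCA when it lies on the opposite strand.
Abca4: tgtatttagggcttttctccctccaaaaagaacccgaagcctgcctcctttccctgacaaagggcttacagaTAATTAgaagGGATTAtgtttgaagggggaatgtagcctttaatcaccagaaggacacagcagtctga
Aipl1: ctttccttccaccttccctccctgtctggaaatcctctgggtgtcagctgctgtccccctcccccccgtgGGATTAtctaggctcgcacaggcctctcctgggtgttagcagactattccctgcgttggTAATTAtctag
Pde6b: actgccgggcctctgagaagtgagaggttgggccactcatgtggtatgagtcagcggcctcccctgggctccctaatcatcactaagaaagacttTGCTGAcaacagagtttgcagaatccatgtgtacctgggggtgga
Sag: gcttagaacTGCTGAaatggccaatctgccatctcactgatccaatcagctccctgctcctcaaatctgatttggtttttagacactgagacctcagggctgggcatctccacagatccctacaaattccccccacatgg

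The motifs were searched on both strands in the 250 bases before each start, and upstream sequences were matched for 6 of the 9 genes (all but Gnat1, Gnat2 and Rcvrn). The CRX/OTX core was found in 2 of the 6, Abca4 (from base -58) and Aipl1 (from base -70), both on the opposite strand, and in 9 of 28 other genes of the pathway (32.1%). It was found in 6.33% of all 27457 rat upstream sequences. TAATTA, whose letters do not overlap the CRX/OTX core in these sequences, lay in the same pair of genes, from base -68 in Abca4 and from base -11 in Aipl1, in 1 of the 28 (3.57%) and in 4.94% of all. The NRL site core lay in Pde6b (from base -45) and Sag (from base -131), in 5 of the 28 (17.9%) and in 15.2% of all. A match is a description of the letters and not a bound site, and the upstream sequences of Pdc and Cnga1 held none of the 3 motifs.

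**Figure D1:**
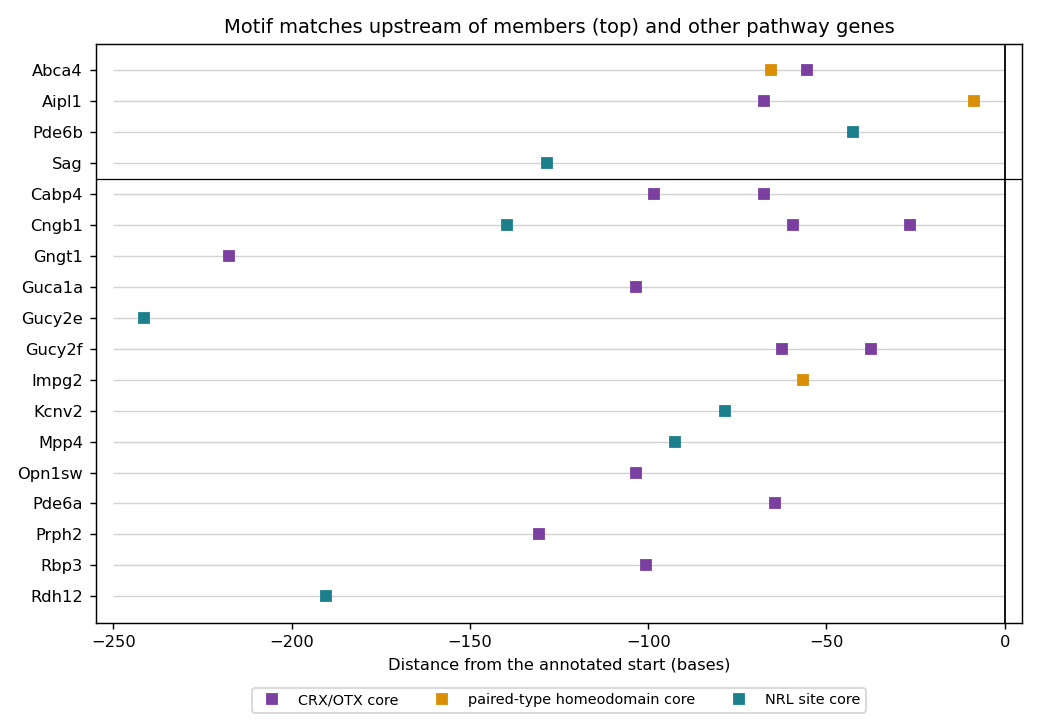
Positions of motif matches (squares, 1 colour per motif) in the 250 bases before the annotated start, with the distance from the start in bases on the x axis and 1 line per gene with at least 1 match. Abca4 and Aipl1, 2 of the 9 genes described here, hold both homeodomain cores, and Pde6b and Sag hold the NRL site core; the lower block holds other genes of the pathway.

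Signals are MAS 5.0 values, which are linear and were scaled so that each array has the same trimmed mean. A signal of 123 (the median of all non-control values, log2 6.94) was taken as the detection threshold, and a gene was tested with limma when at least 3 of the 9 arrays reached it. A gene was called at an adjusted p under 0.05 and a log2 fold change of at least 1 in size. Between 15095 and 15752 probe sets per array reached the threshold, and the median log2 signal of the groups was 6.97, 6.95 and 6.89 for P-RPC, rESC-RPC1 and rESC-RPC2. The retinal label of P-RPC was checked with 7 retinal progenitor markers, of which 6 were detected on every P-RPC array, 5 on every rESC-RPC1 array and 4 on every rESC-RPC2 array. Their summed signal was 39817 to 41708, 13327 to 18946 and 11069 to 12360. Pax6, a factor of retinal progenitors, read 13484 to 14227 in P-RPC, 67.4 to 204 in rESC-RPC1 and 58.5 to 106 in rESC-RPC2, where no array reached the threshold. It had the largest fall of the list. Sox2, a factor of neural progenitors in general, was not called and read 4901 to 4965, 7785 to 10340 and 6273 to 6631 (0.91 ± 0.10 and 0.39 ± 0.10 on the log2 scale against P-RPC). Lhx2, a factor of the early eye field, was not called in rESC-RPC1 (-0.61 ± 0.14) and was lower in rESC-RPC2 (-1.36 ± 0.14). Six6, Rax and Sfrp2, the remaining tested markers, were called lower in both rESC-RPCs but still reached the threshold there. Six6 read 4858 to 5026, 357 to 651 and 1144 to 1625, and Sfrp2 3314 to 3501, 390 to 834 and 128 to 204. By its probe set of highest mean, Rax read 4557 to 4696, 135 to 382 and 76.6 to 222. Its other probe set read at most 46.7 in the rESC-RPCs.

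In P-RPC, 7 of the 9 genes were detected on all 3 arrays, which were Gnat2, Pdc, Sag, Aipl1, Abca4, Cnga1 and Pde6b. None of the 9 was detected on any rESC-RPC1 or rESC-RPC2 array, where their signals lay between 1.53 and 57.6 and between 2.51 and 54.4. All 7 were called lower in both rESC-RPCs, by at least 1.52-fold (Pde6b) to at least 23.1-fold (Gnat2). Wherever an adjusted p is printed beside such a bound, it belongs to the fitted fold change of limma and does not test the bound. Each of the 7 was tested through its P-RPC arrays alone, so that it had to differ, and the count of 7 is given as a description only. Of all 9956 tested genes, 9.56% were called lower and 12.0% higher in rESC-RPC1 against P-RPC, and 13.0% lower and 10.7% higher in rESC-RPC2 against P-RPC. Without the filter, 8 of the 9 genes read lower on every rESC-RPC1 array than on any P-RPC array, as did 27.3% of all 14217 genes, and 9 of 9 did so in rESC-RPC2, as did 30.9% of all genes. In bulk RNA, fewer photoreceptors and less RNA per photoreceptor cannot be told apart.

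**Figure D2:**
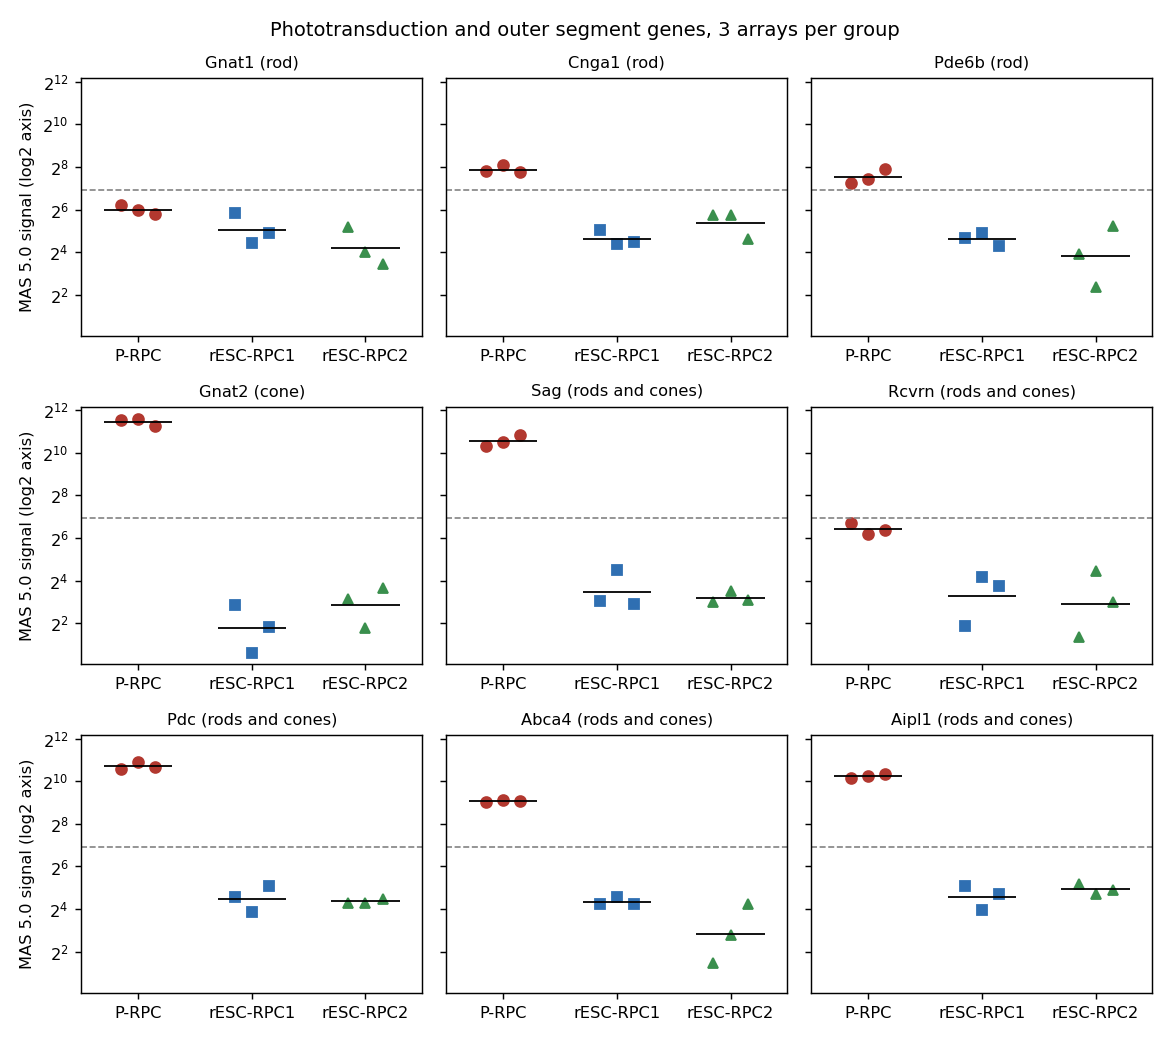
Signal of each of the 9 genes on each array, on a log2 axis, with P-RPC as circles, rESC-RPC1 as squares and rESC-RPC2 as triangles (3 arrays per group), the geometric mean of each group as a black line and the detection threshold of 123 as a dashed line. All rESC-RPC points lie under the threshold, and 7 genes lie above it on every P-RPC array, while Gnat1 and Rcvrn lie under it throughout.

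Among the rod genes, Pde6b encodes the beta catalytic subunit of the rod phosphodiesterase. Its signals were 154, 172 and 243 in P-RPC, 25.0, 30.1 and 19.5 in rESC-RPC1 and 15.1, 5.06 and 37.5 in rESC-RPC2. Every P-RPC array lay above the threshold, but not far above it, and P-RPC did not overlap with either rESC-RPC group. Pde6b was at least 1.52-fold lower in both, and its fitted fold changes had adjusted p = 0.003 in rESC-RPC1 and 0.000621 in rESC-RPC2. Its spread in P-RPC was the widest of the 9 genes, with a coefficient of variation of 24.8% (n = 3).

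Cnga1, the alpha subunit of the rod cGMP-gated channel, read 222, 269 and 216 in P-RPC, 32.7, 20.9 and 22.5 in rESC-RPC1 and 54.4, 54.1 and 24.4 in rESC-RPC2. All arrays of P-RPC lay above all others, and the rESC-RPC groups overlapped. It was at least 1.91-fold lower in both rESC-RPCs (adjusted p = 4.15e-05 and 0.000225). For Pde6b and Cnga1 the fold that could be measured against the threshold stayed under the 2-fold needed for a call: with all signals raised to the threshold, neither was called.

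Gnat1, the alpha subunit of rod transducin, was not detected on any of the 9 arrays and was not tested. It read 73.2, 62.1 and 56.1 in P-RPC, 57.6, 21.5 and 29.8 in rESC-RPC1 and 36.4, 15.9 and 10.9 in rESC-RPC2. The rESC-RPC1 arrays overlapped with those of P-RPC, while all rESC-RPC2 arrays lay lower, and no fold is given since all these signals were under the threshold. When the filter was dropped, the adjusted p of Gnat1 was 0.186 for rESC-RPC1 and 0.0171 for rESC-RPC2.

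The cone counterpart, Gnat2, behaved otherwise. Gnat2 encodes the alpha subunit of cone transducin and read 2983, 3123 and 2433 in P-RPC (mean 2846 ± 365, SD, n = 3), against 7.29, 1.53 and 3.47 in rESC-RPC1 and 8.89, 3.42 and 12.7 in rESC-RPC2. Each P-RPC array lay far above the threshold and each rESC-RPC array far under it. The difference was at least 23.1-fold in both comparisons (adjusted p = 7.89e-07 and 1.69e-06), which was the largest bound among the 7 tested genes. Gnat1 and Gnat2 are read by different probes, so their levels cannot be set against each other, and the pair shows only that the cone gene was detected in P-RPC and the rod gene was not.

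Of the genes used by both rods and cones, Pdc encodes phosducin, which binds the beta-gamma subunits of transducin. Its signals were 1520, 1939 and 1651 in P-RPC, 23.5, 14.4 and 33.4 in rESC-RPC1 and 19.6, 19.7 and 22.2 in rESC-RPC2. The P-RPC arrays stood apart from both rESC-RPC groups, which overlapped. Pdc was at least 13.8-fold lower in both (adjusted p = 1.15e-07 and 8.65e-08).

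Sag encodes visual arrestin, which binds light-activated opsin and ends its signalling. It read 1295, 1452 and 1811 in P-RPC, 8.14, 22.5 and 7.58 in rESC-RPC1 and 8.04, 11.3 and 8.46 in rESC-RPC2. The bound was at least 12.3-fold lower in both (adjusted p = 5.69e-07 and 4.02e-07). P-RPC replicate 3 was the highest array for Sag, Pde6b and Aipl1, whereas replicate 2 was the highest for Gnat2, Pdc, Cnga1 and Abca4. Replicate 1 was the highest for Gnat1 and Rcvrn, which were under the threshold.

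Rcvrn encodes recoverin, a calcium sensor that restrains the opsin kinase. It stayed under the threshold on all arrays and was not tested. Its signals were 105.9, 73.4 and 83.4 in P-RPC, 3.70, 18.0 and 13.4 in rESC-RPC1 and 2.51, 21.7 and 7.92 in rESC-RPC2. All P-RPC arrays lay above all rESC-RPC arrays, with an adjusted p of 0.00931 and 0.00479 when the filter was dropped, but no fold can be given.

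Aipl1, a chaperone needed for the assembly of the phosphodiesterase, read 1125, 1228 and 1295 in P-RPC, 34.3, 15.4 and 25.7 in rESC-RPC1 and 36.7, 26.4 and 29.4 in rESC-RPC2. It was at least 9.91-fold lower in both (adjusted p = 1.68e-07 and 2.49e-07). Abca4, the transporter that clears retinoid products from the disc membrane, read 523, 564 and 541 in P-RPC, which was the tightest of the 9 genes with a coefficient of variation of 3.85%. In rESC-RPC1 it read 19.1, 23.7 and 18.8 and in rESC-RPC2 2.75, 6.82 and 18.8, at least 4.42-fold lower than in P-RPC in both (adjusted p = 8.17e-05 and 1e-05). Both genes stood clear of the threshold in P-RPC and under it in all rESC-RPC arrays, and they are the pair with the CRX/OTX core in the sequences printed above. Pdc and Sag, in which that core was not found, showed the same pattern. A link between the core and the levels was not tested.

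**Figure D3:**
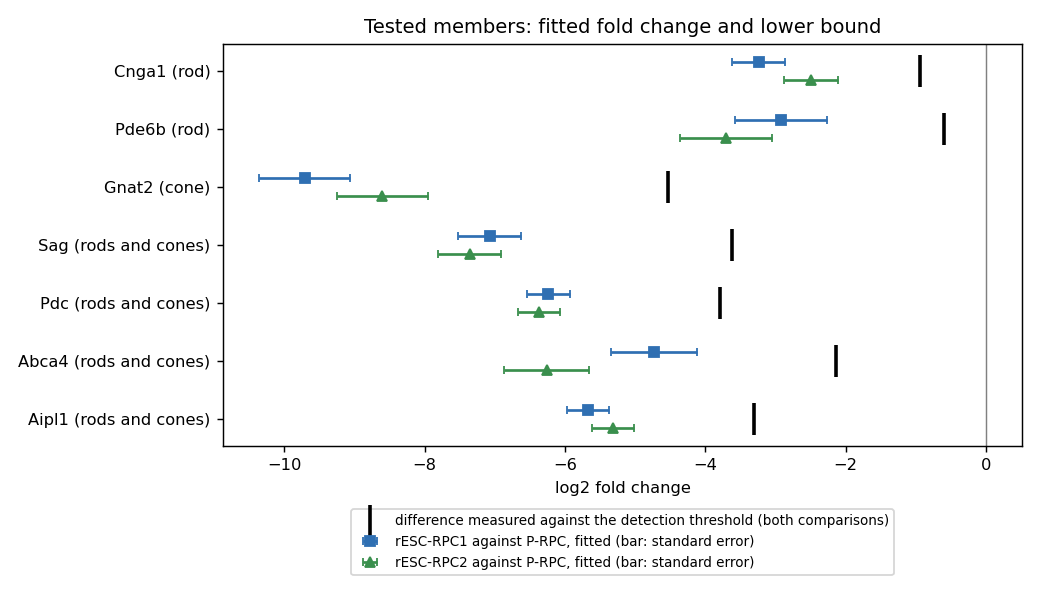
Fitted log2 fold changes of the 7 tested genes with their standard errors, for rESC-RPC1 (squares) and rESC-RPC2 (triangles) against P-RPC, and the part of each difference measured against the detection threshold (black ticks). The fitted values run from -2.50 (Cnga1) to -9.71 (Gnat2) and rest on rESC-RPC signals under the threshold, so the ticks, from 1.52-fold to 23.1-fold, are the sizes the arrays can bear.

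Between the rESC-RPCs, none of the 7 tested genes was called, with adjusted p from 0.0598 (Abca4) to 0.751 (Pdc) by limma and 1 of 7 at an unadjusted p under 0.05. The methods' t-test also called none. Of all tested genes, 9.25% were lower and 5.02% higher in rESC-RPC2 than in rESC-RPC1. The arrays of the 2 groups overlapped for 8 of the 9 genes, the exception being Abca4, which read lower on every rESC-RPC2 array. Since all these signals were under the threshold, they give no order between the rESC-RPCs. Without rESC-RPC2 replicate 3, Abca4 was called lower (log2 fold change -2.24, adjusted p = 0.00529) and Cnga1 higher (1.13, adjusted p = 0.0221) in rESC-RPC2, again on signals under the threshold.

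Other genes of the pathway were taken from 4 lists of 41 genes (rod partners, cone partners, shared regulators, and proteins of the outer segment and photoreceptor), of which 34 were on the array under their own name and 17 were tested. Of the 17, 15 were called lower in both rESC-RPCs and none higher, against 9.56% and 13.0% of all tested genes called lower. However, 11 of the 17 were tested through their P-RPC arrays alone and so had to differ, and the count is a description. With signals raised to the threshold it was 12 in both comparisons. The other 17 did not reach the threshold on any array, the highest P-RPC signal among them being 112 (Rbp3). The remaining 7 of the 41 are not analysed here. Counting the genes described above with their partners, P-RPC arrays detected 5 of 10 rod genes and 6 of 9 cone genes on the array, and each rESC-RPC group detected 1 of each.

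Among the rod partners, Pde6g, the inhibitory subunit of the rod phosphodiesterase, read 1639, 1707 and 1697 in P-RPC, 65.7, 66.0 and 66.6 in rESC-RPC1 and 49.6, 94.9 and 75.1 in rESC-RPC2. It was at least 13.7-fold lower in both rESC-RPCs (adjusted p = 6.84e-08 and 7.46e-08). Gngt1, the gamma subunit of rod transducin, read 890 to 999 in P-RPC and at most 24.5 elsewhere, at least 7.79-fold lower in both. The rod phosphodiesterase was thus detected in P-RPC by Pde6b and Pde6g, but not by Pde6a, its alpha subunit, which read 37.1 to 67.7. Grk1 and Guca1b, an opsin kinase and a guanylate cyclase activator, were also under the threshold in P-RPC.

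Among the cone partners, Gngt2, the gamma subunit of cone transducin, read 7317, 8428 and 7655 in P-RPC, 9.44, 35.1 and 35.1 in rESC-RPC1 and 11.1, 33.0 and 41.3 in rESC-RPC2. It was at least 63.5-fold lower in both (adjusted p = 7.42e-07 and 7.36e-07). By its probe set of highest mean, Gnb3, the cone transducin beta subunit, was detected on most rESC-RPC arrays. That probe set read 2067 to 2515 in P-RPC, 122 to 183 in rESC-RPC1 and 132 to 155 in rESC-RPC2. Its log2 fold changes were -3.85 ± 0.17 and -3.97 ± 0.17 (standard error). The other Gnb3 probe set read 361 to 382 in P-RPC and at most 60.4 in the rESC-RPCs, where no array reached the threshold. Tested by itself with limma, it was called lower in both (-4.88 ± 1.03 and -3.18 ± 1.03, adjusted p = 0.00212 and 0.0202). All 3 subunits of cone transducin, Gnat2, Gnb3 and Gngt2, were thus detected on all P-RPC arrays.

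Opn1sw, the short-wavelength cone opsin, read 1154 to 1455 in P-RPC and at most 33.2 in the rESC-RPCs, at least 10.7-fold lower in both, whereas Opn1mw, the middle-wavelength opsin, read at most 20.9 on all arrays. Pde6h, the inhibitory subunit of the cone phosphodiesterase, read 342 to 400 in P-RPC, 53.2 to 179 in rESC-RPC1 and 41.6 to 75.1 in rESC-RPC2. It was called lower in rESC-RPC1 (-1.95 ± 0.39 on the log2 scale), where 1 of the 3 arrays reached the threshold, so that this value rests mostly on signals under it. In rESC-RPC2 the bound was at least 2.95-fold lower. Slc24a2, a sodium, calcium and potassium exchanger of cones that other neurons also use, was not called in either comparison (-0.02 ± 0.23 and -0.51 ± 0.23 on the log2 scale). Rgs9, which speeds the inactivation of transducin, was the 1 shared regulator tested. In both rESC-RPCs it was at least 2.32-fold lower, while its other probe set reached the threshold on only 1 array.

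**Figure D4:**
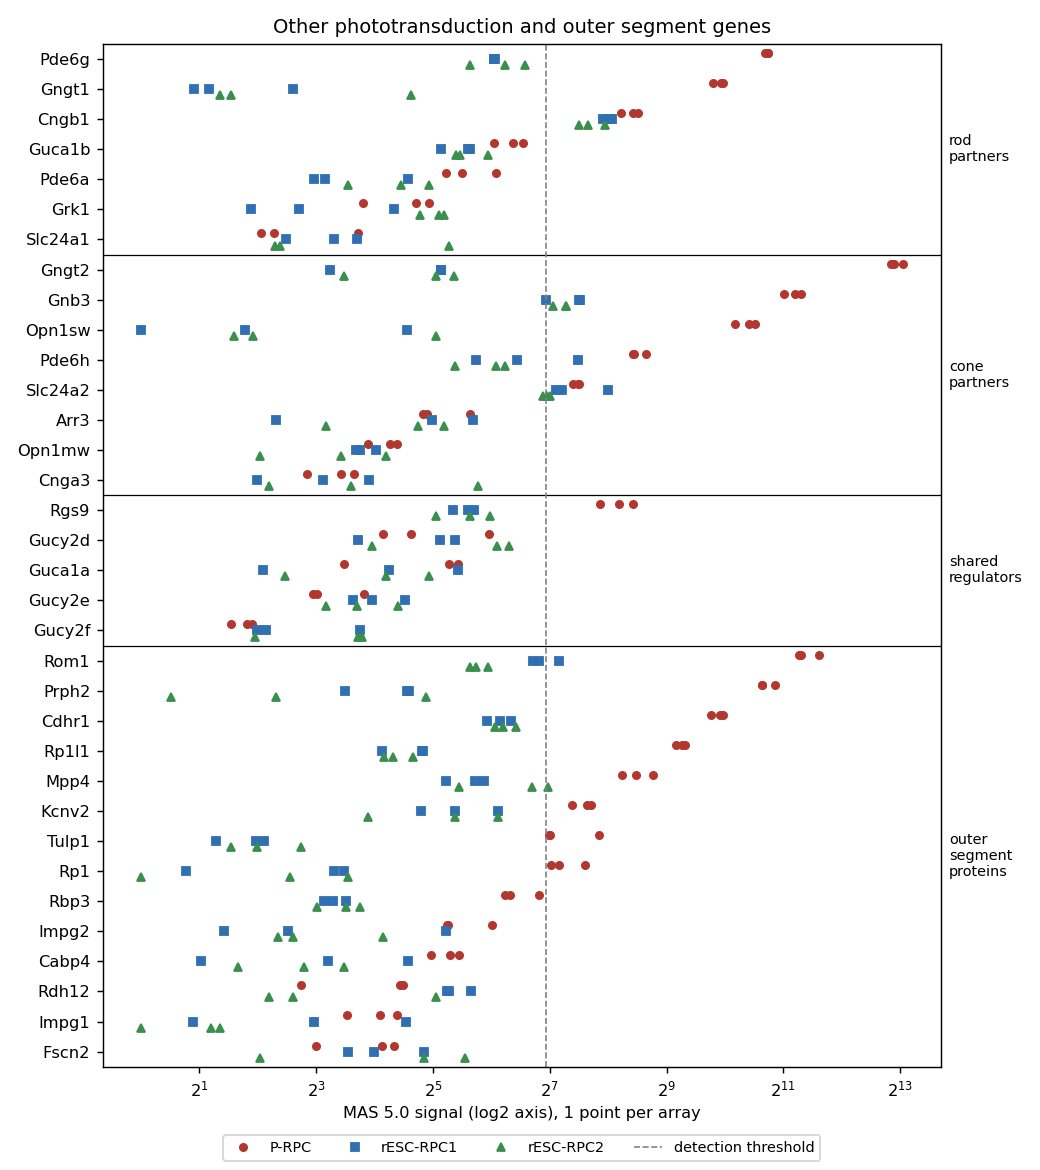
Signals of the other pathway genes on each array, on a log2 axis, grouped by list and sorted by their P-RPC mean, with 1 point per array and the detection threshold of 123 as a dashed line. Where a gene had several probe sets, the tested one of highest mean is shown; the P-RPC points of Gngt2 lie at 7317 to 8428, and those of Pde6a, Grk1, Opn1mw and Arr3 lie under the threshold.

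All 8 tested genes of outer segment and photoreceptor proteins were called lower in both rESC-RPCs, against 9.56% and 13.0% of all tested genes. However, 6 of the 8 reached the threshold on P-RPC arrays only and had to differ. For 3 of the 6 the fold measured against the threshold stayed under the 2-fold needed for a call, at 1.25 for Rp1, 1.26 for Tulp1 and 1.55 for Kcnv2. Rom1 and Prph2 form the rim of the outer segment discs. Prph2 read 1580 to 1849 in P-RPC and at most 29.3 elsewhere, at least 13.6-fold lower in both. Rom1 read 2476, 3112 and 2510 in P-RPC, 113, 142 and 104 in rESC-RPC1 and 49.5, 53.4 and 61.6 in rESC-RPC2. It was the 1 pathway gene called between the rESC-RPCs (-1.12 ± 0.16, adjusted p = 0.00031, lower in rESC-RPC2), and this call was lost with signals raised to the threshold and without rESC-RPC1 replicate 2, the 1 rESC-RPC array on which it was detected. Cdhr1, a cadherin at the base of the outer segment, was at least 7.65-fold lower and Rp1l1, a protein of the axoneme, at least 4.96-fold lower in both.

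Cngb1, the beta subunit of the rod channel, gave different answers by probe set. The probe set of highest mean read 343, 363 and 298 in P-RPC, 259, 239 and 266 in rESC-RPC1 and 247, 182 and 201 in rESC-RPC2, and was not called (-0.39 ± 0.15 and -0.68 ± 0.15). The next probe set read 284, 441 and 312 in P-RPC but 4.41, 15.2 and 5.10 in rESC-RPC1 and 40.9, 6.61 and 5.13 in rESC-RPC2. When each probe set was tested by itself, the latter was called lower in both (adjusted p = 0.000215 and 0.000456). The remaining probe set was under the threshold on all arrays, and which transcripts each one reads was not tested.

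Proteins that photoreceptors share with many other cell types were detected on all arrays, so that their folds were measured on both sides. Unc119, which carries lipid-bearing transducin to the outer segment, read 3098, 3534 and 3389 in P-RPC, 1480, 1504 and 1060 in rESC-RPC1 and 1318, 1059 and 1146 in rESC-RPC2. It was lower by -1.33 ± 0.14 and -1.51 ± 0.14 on the log2 scale (adjusted p = 1.92e-05 and 6.89e-06). Prom1, a membrane protein of disc formation that also marks progenitors, read 3106 to 3289, 572 to 947 and 556 to 589, lower by -2.13 ± 0.15 and -2.48 ± 0.15. Gnb1, the beta subunit used by rod transducin and by G proteins elsewhere, was 0.21 ± 0.06 and 0.67 ± 0.06 higher on the log2 scale, under the size needed for a call. Its 3 tested probe sets differed in size, at 0.21, 0.82 and 0.46 in rESC-RPC1 and 0.67, 0.73 and 0.95 in rESC-RPC2, and their median signal gave 0.64 and 0.95, with no call. Gnb5, the partner of Rgs9, and Pde6d, a carrier of lipid-modified proteins, were not called in either comparison. Gnb5 was near 0 in rESC-RPC1 (-0.004 ± 0.09). In rESC-RPC2 it was 0.59 ± 0.09 higher (adjusted p = 0.000161 by limma), under the size needed for a call. Pde6d was at 0.12 ± 0.08 and 0.13 ± 0.08. Of these 5 genes 2 were called lower and 3 were not called in each comparison, against 9.56% and 13.0% of all tested genes called lower.

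**Figure D5:**
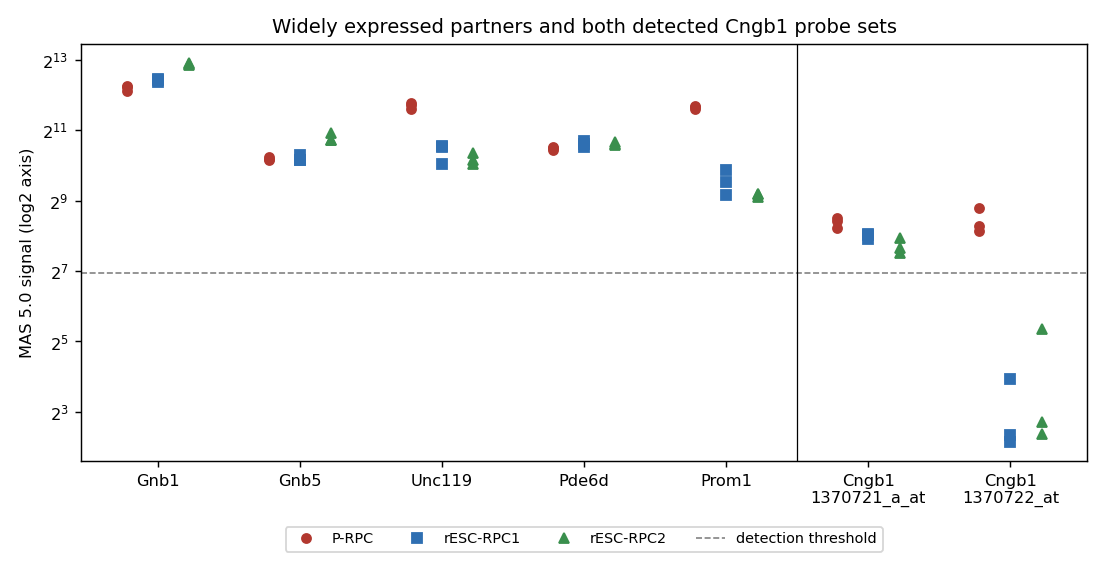
Signals of 5 widely expressed partners (left of the line) and of both detected Cngb1 probe sets (right), on a log2 axis, with 1 point per array and the detection threshold of 123 as a dashed line. Unc119 and Prom1 are lower in both rESC-RPCs and far above the threshold, and only 1 of the Cngb1 probe sets drops under the threshold in the rESC-RPCs.

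The transcription factors of photoreceptors were lower as well: all 7 on the array, Otx2, Neurod1, Thrb, Prdm1, Rorb, Rxrg and Crx, were tested and called lower in both rESC-RPCs, against 9.56% and 13.0% of all tested genes. Of these, 3 (Crx, Prdm1 and Rorb) reached the threshold on P-RPC arrays only and had to differ. Otx2 is not confined to photoreceptors, and the paper used it as an anterior neural marker. It read 12650 to 13284 in P-RPC, 3663 to 7644 in rESC-RPC1 and 1571 to 1741 in rESC-RPC2. The groups did not overlap, with log2 fold changes of -1.22 ± 0.21 and -2.98 ± 0.21 against P-RPC and -1.76 ± 0.21 in rESC-RPC2 against rESC-RPC1 (adjusted p = 7.44e-05). Crx, which binds the same core, read 142, 156 and 136 in P-RPC and at most 21.3 in the rESC-RPCs, at least 1.18-fold lower in both, a measured fold under the 2-fold needed for a call, so that its call rests on signals under the threshold. Prdm1, known to hold young photoreceptors from the bipolar fate, was at least 26.5-fold lower in both. The rod factors Nrl and Nr2e3 are not analysed here.

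Marker lists of other cells that a dissociated newborn eye could hold also differed between the groups, and their part in the results was not tested. Of 7 retinal pigment epithelium markers, 4 were detected on every P-RPC array, 1 on every rESC-RPC1 array and none on all rESC-RPC2 arrays. Their summed signals were 6244 to 8194, 1203 to 4971 and 234 to 308. The marker detected on every rESC-RPC1 array was Dct, which made up most of the sum there. Rpe65 and Lrat stayed under the threshold on all arrays. Of 8 microglia markers, 4, 0 and 0 were so detected (929 to 1033, 133 to 242 and 231 to 260), and of 3 red blood cell markers 1, 0 and 0 (14022 to 15155, 58.4 to 129 and 65.0 to 82.9). The red blood cell marker detected was Hbb, at 13868 to 15033 in P-RPC, which made up most of that sum. Of 4 endothelial markers, 1, 1 and 0 were detected (6592 to 6995, 453 to 1098 and 191 to 232). That marker was Kdr, at 6357 to 6722 in P-RPC and 370 to 981 in rESC-RPC1, which made up most of the sums in both. No other endothelial marker was detected on every array of a group. Pineal cells also express Sag, Crx and other photoreceptor genes, and neither of the 2 pineal markers on the array was detected (71.2 to 97.7, 102 to 105 and 41.1 to 63.6). Bipolar cells also express Otx2, and 1, 0 and 0 of 3 bipolar markers were detected (390 to 419, 246 to 259 and 222 to 261). Single markers went the other way. Prkca, which rod bipolar cells share with many cell types, was called higher in both rESC-RPCs (1.70 ± 0.27 and 1.44 ± 0.27, adjusted p = 0.000322 and 0.000868), from P-RPC signals of at most 46.9, under the threshold. Dct, a melanin enzyme, was called higher in rESC-RPC1 (1.35 ± 0.43, adjusted p = 0.0203; 865 to 1160 in P-RPC and 1033 to 4630 in rESC-RPC1) and lower in rESC-RPC2 (-3.20 ± 0.43).

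Lens markers, with 1, 0 and 0 of 6 detected, summed to 1055 to 47479 in P-RPC, 70.9 to 157 in rESC-RPC1 and 92.3 to 149 in rESC-RPC2, and the high value was P-RPC replicate 1. On that array the 7 tested genes lay at a median of -0.11 log2 from their P-RPC mean, against 0.06 on replicate 2. Without it, all 7 were still called in both comparisons, but the genes had been selected with that array included. Each of the 7 passed the filter through its P-RPC arrays alone and so had to differ. With the filter applied again without that array, they could no longer be tested. The count without replicate 1 is therefore a description only. Astrocyte markers moved the other way, with 0, 3 and 1 of 4 detected and sums of 177 to 196, 4050 to 5262 and 697 to 1755. Of the pluripotency markers only Esrrb was on the array, at 77.7 to 87.4, 288 to 327 and 85.0 to 120. What this single gene stands for was not tested, and by RT-qPCR the paper found almost no Nanog or Oct4 in either rESC-RPC.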

How the data were processed

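RNA of 9 samples in 3 groups was measured on 1 array each. The values are intensities on a linear scale, deposited by the authors as MAS 5.0 signals after background removal and scaling. The MAS5 version is not given in the sources used here. The mean trimmed by 2% at each end was 500.2 on every array, and the medians were 113 to 128. Values below 1 were raised to 1, and log2 values were computed from the deposited signals without rescaling. Of 31099 probe sets, 57 controls were left out, as were 436 with several gene symbols and 9780 with none. A gene was tested where a probe set reached 123 on at least 3 of 9 arrays, and was represented by its tested probe set of highest mean (9956 genes). limma 3.58.1 in R 4.3.3 (lmFit, eBayes with a variance trend) was fitted to all 9 arrays with a mean for each group, with Benjamini-Hochberg adjustment over all tested genes, after being tested on simulated data. Where a whole group lay under the threshold, the fold is a bound: the geometric mean of the other group over the threshold. The adjusted p printed with a bound is that of the fitted log2 fold change. The number of arrays limits the precision. The samples are labelled biological replicates, and replicate numbers were treated as unpaired (r of deviations from -0.04 to 0.27). Motifs were searched with Python 3.11.15 and pandas 2.3.3.

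The genes, the gene lists and the motifs were chosen with earlier results of these data known. By the naming rule, all 9 genes were named with every probe set, then up to 4 called genes per list of highest mean signal, 1 marker per list and the 5 genes of nearest profile. Cngb1, Slc24a2, Crx, Prdm1, Pax6, Lhx2, Six6, Rax, Sfrp2, Prkca, Dct, Rp1, Tulp1, Kcnv2, Rorb, Rxrg, the uncalled partners and the genes named as under the threshold were named after their values were seen.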

Additional observations from a re-analysis of the deposited data

How the results depend on the processing

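Under 21 alternative settings, 7 of the 9 genes were called lower than P-RPC in both rESC-RPCs in 36 of 42 counts. The exceptions were no filter (8 and 9), a filter at a signal of 351 (5 and 5) and signals raised to the threshold (5 and 5, with Cnga1 at -0.94 and Pde6b at -0.60 no longer called). Of the other pathway genes, 15 as reported, the filter at 351 left 9 called in each comparison with P-RPC, since fewer were tested. Signals raised to the threshold left 12, and quantile normalization and median centring left 14 each. The count rose to 16 in rESC-RPC1 and 18 in rESC-RPC2 with no filter, and to 16 in both with the median of probe sets. The median of probe sets moved Gnb1 from 0.21 to 0.64 in rESC-RPC1, with no call. With each array left out in turn, 7 of the genes and 15 of the other pathway genes were called against P-RPC each time, and between the rESC-RPCs 0 to 2 of the genes (2 without rESC-RPC2 replicate 3) and 0 to 2 of the others. The other pathway genes called between the rESC-RPCs, 1 as reported (Rom1), were 2 with no filter (with Grk1), 0 with signals raised to the threshold, 0 without rESC-RPC1 replicate 2, and 2 without rESC-RPC1 replicate 3 (Pde6h), rESC-RPC2 replicate 1 (Mpp4) or rESC-RPC2 replicate 2 (Prph2). With the replicate block, 7, 7 and 0 of the genes and 15, 15 and 1 of the others were called, the same counts as without it. Alternatives added after seeing the data tested each probe set by itself (7, 7 and 0; 16, 16 and 1, with Cngb1 added) and applied the filter again without each array: without any 1 P-RPC array, 0 of the 9 genes and 4 of the others were called, by construction, as only 2 arrays could then reach the threshold. Median centring turned the value of Gnb5 in rESC-RPC1, near 0, to 0.02. What limits the values is signal over background, since all rESC-RPC levels of the 9 genes lay under the threshold and no order among them can be read.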

Other observations

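The 5 genes outside the lists whose profile over the 9 arrays was nearest to the mean profile of the 7 tested genes were Ctss, Kcna5, Mab21l2, Egflam and Tbx3. Likeness was measured as the root mean square difference of log2 signals, raised to the threshold and centred on each gene's mean, over 9 arrays that fall into 3 groups. The differences were 0.090, 0.111, 0.117, 0.124 and 0.129, smaller than those of the 7 genes themselves, which ran from 0.26 (Abca4) to 1.00 (Pde6b). Ctss encodes the lysosomal protease cathepsin S, abundant in microglia, and read 689 to 766 in P-RPC and at most 90.0 in the rESC-RPCs. Mab21l2, a gene of eye development, read 631 to 718 in P-RPC and at most 83.6 in the rESC-RPCs. Egflam encodes pikachurin, a matrix protein of the photoreceptor ribbon synapse, and read 639 to 753 in P-RPC and at most 83.5 elsewhere. Tbx3, a T-box factor of the dorsal retina, read 923 to 1002 and at most 85.0, and Kcna5, a potassium channel, 625 to 752 and at most 55.9. All 5 were detected on every P-RPC array and on no rESC-RPC array, a pattern that the measure favours.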
